A study of Homo sapiens with 64 samples.

Results

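Glucocorticoids change transcription within the first hour, and some of these changes last while others pass. The comparison described here asked how the effect of budesonide at 18 h differed from its effect at 6 h. It was taken as the difference between budesonide and untreated cells at 18 h minus the same difference at 6 h, so a positive value means that the effect was higher, or less negative, at 18 h. The comparison was chosen by its groups and not by any measured value, and it used 16 of the 64 arrays of the study. All 18132 genes that could be tested are its members.

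The study measured BEAS-2B cells, human bronchial epithelial cells grown as an immortal line, after exposure to drugs used in inhalers for asthma. Cells were kept overnight without serum and then received budesonide, a glucocorticoid, at 100 nM for 18 h (Bud_18h), no drug for 18 h (NS_18h), budesonide at 100 nM for 6 h (Bud_6h) or no drug for 6 h (NS_6h), with 4 arrays in each group. Further groups at 6 and 18 h received 10 nM formoterol, an agonist of beta2-adrenoceptors, with or without the same dose of budesonide, and all treatments were also measured at 1 and 2 h. The labels call the 4 arrays of a group independent determinations of one cell line, so a p-value here measures the spread between such samples.

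Values are log2 expression, and every effect, contrast and SE below is on that scale, where 1 unit is a 2-fold difference. A gene was called where limma, a linear model with a moderated spread, gave it a two-sided p under 0.05 after Benjamini-Hochberg adjustment over all genes, with n = 4 arrays per group. The number of arrays limits the precision. Detection calls were not used here, and a group mean under 3.02, the lower quartile of all values, was read as not told from background. An effect against such a mean is a lower bound of its size. In bulk RNA, fewer cells with a transcript and less of it in each cell cannot be told apart.

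The medians of the 16 arrays lay between 4.88 and 4.94. The epithelial line markers included KRT8, KRT18 and EGFR, and their mean per array lay between 6.73 and 6.82 in budesonide cells at 18 h, 7.01 and 7.14 in untreated cells at 18 h, 7.01 and 7.15 in budesonide cells at 6 h, and was at most 7.17 in untreated cells at 6 h. Of these 10 genes only the epithelial adhesion gene EPCAM lay under 3.02, in all 4 groups (2.49 to 2.61), while vimentin, which mesenchymal and cultured cells express, lay between 13.00 and 13.06. Of the 9 leukocyte markers, the lowest, PTPRC, lay between 1.85 and 2.01 and the highest, CD68, between 5.55 and 5.88. Of the 10 markers of fibroblasts and smooth muscle, the lowest, LUM, lay between 1.67 and 1.91 and the highest, PDGFRB, between 8.61 and 9.26. Of the 10 epithelial line markers, 3 lay under 4.90, the median of all values, in each group but untreated cells at 18 h, where 4 did. No marker of leukocytes (9 measured) or endothelium (8) was called in the contrast, against 4.24% of all genes. Called and lower were 1 of 10 epithelial line markers, KRT8 (-1.12 ± 0.22), and 1 of 10 markers of fibroblasts and smooth muscle, the surface glycoprotein THY1 (-0.83 ± 0.14). RNA integrity, read as the signal of beta-actin probes at the 3' end minus those at the 5' end, lay between 1.94 and 2.21 in the replicate 1 arrays of the 4 groups and between 0.63 and 1.25 in the other 12 arrays. Without all replicate 1 arrays, which leaves 3 arrays a group, the contrast called 443 genes instead of 769. These held 436 of the 769 and all 48 genes named by size below.

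The receptor for glucocorticoids, NR3C1, waits in the cytoplasm bound to chaperones and moves to the nucleus when it binds the steroid. There it raises some genes by binding DNA at glucocorticoid response elements and lowers others, among them genes driven by the inflammatory factors NF-kappaB and AP-1. Genes bound directly by the receptor tend to respond early, and proteins made from them, including transcription factors, can alter further genes later. The receptor also lowers its own transcript in many cells.

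In the fit without the replicate number, the effect of budesonide differed between 18 h and 6 h for 769 of 18132 genes, or 4.24%. With this number as a block, a term for what same-numbered arrays share, 1322 genes were called. With a block within each time 1881 were called, and both fits called all 769. Counts below are from the fit without the block unless stated. The contrast was positive for 310 genes (1.71%) and negative for 459 (2.53%), and 168 (0.927%) differed at least 2-fold. The median contrast over all genes was 0.000788, and the median size among called genes was 0.65. For comparison, 18.3% of genes were called for budesonide at 18 h, with 8.56% raised and 9.78% lowered. At 6 h this share was 14.2%, with 6.12% raised and 8.12% lowered. Of the 2583 genes called at 6 h, 2120 were not called in the contrast without the block, which does not show that their effects stayed equal. Of 1567 genes called at both times, 1535 had effects of the same sign and 32 of opposite signs.

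Called genes were sorted by the effect at each time. In 453 genes the effect grew, which means that the 18 h effect was called in the direction of the contrast. Of these, 297 were not called at 6 h (late onset), and 156 were called at 6 h in the same direction (grew further). In 275 genes the effect faded. Of these, 192 were no longer called at 18 h and 83 were still called in the same direction. In 32 genes the effect reversed, called at both times with opposite signs, and 9 genes met none of these descriptions. In this fit the late direction was more often downwards, with 283 genes that grew downwards and 170 that grew upwards. As these classes were made from the contrast and its parts, their sizes are a description. They also depended on the fit. With the replicate block 747 genes grew, 466 faded and 77 reversed, and with the block within each time 1071, 652 and 122. The lean to negative contrasts varied as well. Of the genes called, 45.5% had a positive contrast with the block and 48.3% with the block within each time. With 1 array left out this share lay between 34.9% and 46.9%.

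**Figure D1:**
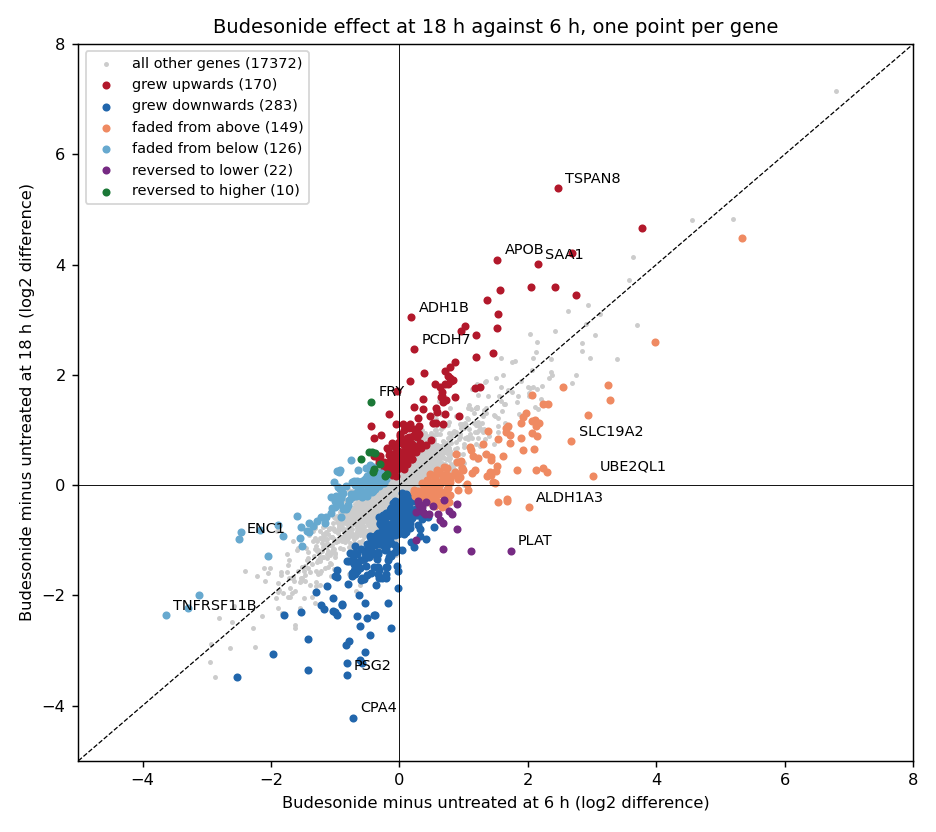
Budesonide minus untreated log2 difference at 6 h (x axis) and 18 h (y axis) for each of 18132 genes, with the classes in colour and the numbers of genes in the legend; the dashed line marks equal effects. TSPAN8 and CPA4 lie far above and below the line, and PLAT lies right of 0 and below 0.

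Most of the change between the times lay in the budesonide arrays. Budesonide cells moved more than untreated cells between 6 and 18 h in 743 of the 769 genes, and their own change from 6 to 18 h was called in 744 of them, against 13.9% of all genes. Untreated cells at 18 h differed from untreated cells at 6 h in 9 of all 18132 genes (0.0496%), and 2 of these, ASNS and INHBB, were among the 769. Among the 48 genes named by size, all 4 budesonide arrays at 18 h lay on one side of all 4 budesonide arrays at 6 h in each gene. In untreated cells the arrays of both times did not overlap in 3 of the 48. The 769 and the 48 genes were chosen by a contrast that contains these arrays, so these counts are descriptions. Of the 48 genes, 35 had several probe sets, which ran in one direction in 30 and not in ABCB5, ADAMTS3, MYPN, NRP1 and PER2. This compares direction alone, and sizes could differ widely, as in DMBT1 (-1.84 to -0.01 over 3 probe sets) and ACTC1 (-2.30 to -0.12 over 2).

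Genes that grew upwards had a median effect of 0.73 at 18 h, against 0.12 at 6 h. The largest contrasts belonged to TSPAN8, a membrane tetraspanin, ADH1B, an alcohol dehydrogenase, APOB, the structural protein of low-density lipoprotein, and PCDH7, a protocadherin. TSPAN8 at 18 h read 7.45, 7.72, 7.52 and 7.60 in budesonide cells and 2.04, 2.19, 2.23 and 2.29 in untreated cells. TSPAN8 at 6 h read 5.12, 4.90, 4.42 and 5.03 in budesonide cells and 2.24, 2.78, 2.14 and 2.47 in untreated cells. All budesonide arrays lay above all untreated arrays at both times, and the 18 h budesonide arrays lay above the 6 h ones. The lower bound of the effect was 5.39 at 18 h and 2.46 at 6 h, and the contrast was 2.92 ± 0.26 (adjusted p = 8.02e-13). The stretch from 250 bases before to 50 bases after the start of each named gene was read from RefSeq (GRCh38.p14). That of TSPAN8, on the minus strand at chr12:71157950-71158249, is shown because this gene had the largest upward contrast and holds a glucocorticoid half-site, AGAACA, here in capitals at position -189 from the start.
TSPAN8: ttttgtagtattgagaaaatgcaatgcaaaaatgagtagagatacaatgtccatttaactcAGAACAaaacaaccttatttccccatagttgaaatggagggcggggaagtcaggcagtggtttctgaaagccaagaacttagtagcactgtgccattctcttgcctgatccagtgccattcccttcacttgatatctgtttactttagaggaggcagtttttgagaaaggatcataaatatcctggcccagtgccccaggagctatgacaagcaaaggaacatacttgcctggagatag

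ADH1B differed from TSPAN8 in having no called effect at 6 h. ADH1B at 18 h read 5.25, 5.37, 5.40 and 5.52 in budesonide cells and 2.57, 2.43, 2.27 and 2.08 in untreated cells. ADH1B at 6 h read 2.49, 2.45, 2.72 and 2.42 in budesonide cells and 2.41, 2.58, 2.11 and 2.24 in untreated cells. The 6 h arrays of both groups and the untreated 18 h arrays all lay under 3.02, and only the 18 h budesonide arrays stood above. The contrast was 2.86 ± 0.18 (adjusted p = 1.64e-18), with a lower bound of 3.05 for the 18 h effect, and the probe set is of a kind that may also bind transcripts of other alcohol dehydrogenase genes. PCDH7 was likewise of late onset, with 2.47 at 18 h and 0.23 at 6 h, and its contrast was 2.24 ± 0.26.

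APOB had lower bounds of 4.08 at 18 h and 1.52 at 6 h, with a contrast of 2.56 ± 0.23. The same course held for GALNT15, which starts O-linked glycans on proteins (2.00 ± 0.29), and for ABCB5, a transporter of the ATP-binding cassette family (1.87 ± 0.21). ZBTB16, a zinc finger repressor also called PLZF, was the 1 member of the glucocorticoid-induced list whose effect grew. ZBTB16 at 18 h read 6.72, 6.28, 6.04 and 6.15 in budesonide cells and 2.62, 2.65, 2.70 and 3.11 in untreated cells. ZBTB16 at 6 h read 4.22, 3.96, 4.76 and 4.18 in budesonide cells and 2.63, 2.70, 2.92 and 2.58 in untreated cells. The budesonide arrays of the 18 h group lay above those of 6 h, which lay above all untreated arrays, and the contrast was 1.96 ± 0.25 (adjusted p = 4.02e-08).

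SAA1, an acute phase protein, also grew further. SAA1 at 18 h read 7.25, 7.19, 7.01 and 6.92 in budesonide cells and 2.77, 3.14, 3.18 and 3.26 in untreated cells. SAA1 at 6 h read 5.05, 5.59, 4.79 and 4.73 in budesonide cells and 3.06, 2.94, 2.85 and 2.71 in untreated cells. Its budesonide arrays lay above its untreated arrays at both times without overlap, and the contrast was 1.85 ± 0.28 (adjusted p = 2.53e-06). The SAA1 probe set may also bind the near-identical SAA2. Of 25 measured acute phase and innate defence genes, 4 grew upwards, 1 faded from above and 1 reversed to lower, against 0.938%, 0.822% and 0.121% of all genes. The median contrast of the list was -0.04. The other risers were complement C3 (0.92 ± 0.24, with all means but that of budesonide at 18 h under 3.02), the complement protease gene C1S (0.70 ± 0.16) and TLR4, the receptor for lipopolysaccharide (0.69 ± 0.19), none of which was called at 6 h. SCNN1A, the alpha subunit of the epithelial sodium channel, had effects of 3.10 at 18 h and 1.53 at 6 h, and its contrast was 1.56 ± 0.24.

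Genes that grew downwards had a median effect of -0.84 at 18 h, against -0.13 at 6 h. CPA4 stood first, and CPA3 was also among the named genes. Both are carboxypeptidases, enzymes that remove amino acids from the ends of proteins and peptides. CPA4 at 18 h read 6.24, 5.88, 5.93 and 5.62 in budesonide cells and 10.25, 10.08, 10.23 and 9.97 in untreated cells. CPA4 at 6 h read 10.19, 9.76, 9.79 and 9.51 in budesonide cells and 10.98, 10.57, 10.53 and 10.07 in untreated cells. The 18 h budesonide arrays lay far below all other arrays, while at 6 h the arrays of both groups overlapped. The effect was -4.22 at 18 h and -0.72 at 6 h, and the contrast of -3.50 ± 0.29 (adjusted p = 6.19e-14) was the most negative of the genes that grew downwards. CPA3, an enzyme best known from mast cells, averaged 6.02 ± 0.19 in budesonide cells and 9.18 ± 0.24 in untreated cells (SD, n = 4 each) at 18 h and 8.78 ± 0.28 in budesonide cells and 9.41 ± 0.20 in untreated cells at 6 h, with a contrast of -2.54 ± 0.19.

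The CPA3 start region, on the plus strand at chr3:148865046-148865345, is shown because it holds a full glucocorticoid response element, GNACA and TGTNC with any 3 bases between them, in capitals at position -92.
CPA3: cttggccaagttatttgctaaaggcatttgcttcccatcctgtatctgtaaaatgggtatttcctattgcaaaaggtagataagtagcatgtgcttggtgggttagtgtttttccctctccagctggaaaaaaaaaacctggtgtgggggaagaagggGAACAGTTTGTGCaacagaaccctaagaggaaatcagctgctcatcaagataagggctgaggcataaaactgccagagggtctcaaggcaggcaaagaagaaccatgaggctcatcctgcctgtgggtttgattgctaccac

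Pregnancy-specific glycoproteins, secreted proteins of the immunoglobulin superfamily made mainly by the placenta, followed with PSG1 and PSG2, while 5 of the 9 measured genes of this family were not called. PSG2 at 18 h read 3.35, 3.27, 3.29 and 3.45 in budesonide cells and 6.73, 6.77, 6.53 and 7.13 in untreated cells. PSG2 at 6 h read 5.99, 6.04, 5.37 and 6.37 in budesonide cells and 6.77, 6.78, 6.44 and 7.07 in untreated cells. No budesonide array overlapped the untreated arrays at either time, and the contrast was -2.63 ± 0.22 (adjusted p = 1.4e-13). PSG1 had a contrast of -2.64 ± 0.28, and its mean under budesonide at 18 h, 3.02, lay at the lower quartile. The PSG genes are near copies of each other and their probe sets may share transcripts, so these values are not independent.

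BMPER, a secreted binder of bone morphogenetic proteins, had the smallest adjusted p of the class (8.24e-20). BMPER at 18 h read 5.06, 5.17, 5.23 and 5.44 in budesonide cells and 8.40, 8.55, 8.48 and 8.34 in untreated cells. BMPER at 6 h read 7.93, 7.69, 7.54 and 7.80 in budesonide cells and 8.62, 8.52, 8.68 and 8.38 in untreated cells. Both times were without overlap between the groups, and the contrast was -2.41 ± 0.14. SERPINB7, a protease inhibitor of the serpin family, had -3.02 at 18 h and -0.54 at 6 h, with a contrast of -2.48 ± 0.35. MYPN, a protein of the muscle sarcomere, had a contrast of -2.46 ± 0.32, and NRP1, a coreceptor for semaphorins and vascular endothelial growth factor, had -2.25 ± 0.33. IGFBP5, which binds insulin-like growth factors, averaged 2.80 ± 0.36 in budesonide cells and 6.16 ± 0.25 in untreated cells (SD, n = 4 each) at 18 h and 4.56 ± 0.51 in budesonide cells and 5.98 ± 0.32 in untreated cells at 6 h, so its 18 h effect of -3.36 is a lower bound of its size. Its contrast was -1.93 ± 0.28, and 4 of its 6 probe sets ran in this direction, with contrasts from -1.93 to 0.24 over the 6.

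In the list of matrix genes, the called members took only this late downward course. Outside that list, the latent TGF-beta binding protein LTBP1 grew upwards (1.15 ± 0.22) and ADAMTS3 faded from below (1.18 ± 0.19), while LOXL1 grew downwards (-1.54 ± 0.25). Of 35 measured extracellular matrix and remodelling genes, 6 were lower and 0 higher in the contrast, against 2.53% and 1.71% of all genes, with a median of -0.20 against 0.000788 for all genes. At 18 h 15 of the 35 were lower and 4 higher, against 9.78% and 8.56% of all genes, and at 6 h 5 were lower and 6 higher, against 8.12% and 6.12%. LOXL2, which cross-links collagen, at 18 h read 8.59, 8.61, 8.50 and 8.24 in budesonide cells and 10.11, 10.23, 9.93 and 10.11 in untreated cells. LOXL2 at 6 h read 9.84, 9.82, 9.50 and 9.59 in budesonide cells and 10.10, 10.12, 9.87 and 9.98 in untreated cells. All 18 h budesonide arrays lay below all other arrays, and the contrast was -1.28 ± 0.12. Tenascin TNC had -1.43 ± 0.33, the collagen gene COL13A1 -1.25 ± 0.20, TGFBI -0.94 ± 0.21, the basement membrane collagen gene COL4A1 -0.49 ± 0.14 and SPARC -0.46 ± 0.07. Of 22 keratin and junction genes, 3 grew downwards and 1 faded from above, against 1.56% and 0.822% of all genes. The 3 were keratin KRT8 (-1.12 ± 0.22), desmoplakin DSP (-0.59 ± 0.16) and N-cadherin CDH2 (-0.44 ± 0.11), and the 1 that faded was the repressor ZEB1 (-0.56 ± 0.16).

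Genes that faded from above had a median effect of 0.11 at 18 h, against 0.78 at 6 h. UBE2QL1, an E2-like gene of the ubiquitin system, had the largest loss. UBE2QL1 at 18 h read 4.51, 4.75, 4.63 and 4.25 in budesonide cells and 4.49, 4.15, 4.51 and 4.33 in untreated cells. UBE2QL1 at 6 h read 7.45, 7.14, 7.06 and 7.50 in budesonide cells and 4.41, 4.09, 4.17 and 4.44 in untreated cells. The groups overlapped at 18 h and lay far apart at 6 h, and the contrast was -2.85 ± 0.24 (adjusted p = 6.19e-14). ALDH1A3, which makes retinoic acid, had effects of -0.40 at 18 h (adjusted p = 0.206) and 2.01 at 6 h. ABLIM3, an actin-binding LIM protein, had 0.24 at 18 h and 2.30 at 6 h. NLGN4X, a neuroligin that binds across synapses, had 0.28 at 18 h and 2.13 at 6 h. None of these 18 h effects was called.

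Of 24 measured G-protein receptors and regulators, 5 were lower in the contrast, against 2.53% of all genes. S1PR3, PTGER2 and RGS2 faded from above, and the oxytocin receptor OXTR (-0.90 ± 0.22) and RGS4 (-1.27 ± 0.39) grew downwards. S1PR3, a receptor for sphingosine 1-phosphate, at 18 h read 5.48, 5.47, 5.45 and 4.51 in budesonide cells and 5.44, 5.86, 5.55 and 5.20 in untreated cells. S1PR3 at 6 h read 7.43, 7.46, 7.16 and 6.55 in budesonide cells and 5.46, 5.79, 5.64 and 5.05 in untreated cells. Budesonide arrays lay above untreated arrays at 6 h and overlapped with them at 18 h, with a contrast of -1.95 ± 0.34. PTGER2, a prostaglandin E2 receptor that raises cyclic AMP, had -0.26 at 18 h and 1.67 at 6 h, and a contrast of -1.93 ± 0.28. DMBT1, a scavenger receptor protein of mucosal surfaces, had -0.31 at 18 h and 1.54 at 6 h.

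SLC19A2, a thiamine transporter, kept part of its effect. SLC19A2 at 18 h read 6.95, 6.92, 6.96 and 6.97 in budesonide cells and 5.95, 6.31, 6.21 and 6.15 in untreated cells. SLC19A2 at 6 h read 9.10, 8.83, 8.86 and 8.87 in budesonide cells and 6.25, 6.31, 6.24 and 6.15 in untreated cells. Budesonide arrays lay above untreated arrays at both times, and the contrast was -1.88 ± 0.19 (adjusted p = 2.28e-11).

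Among 27 measured glucocorticoid-induced genes, 23 were higher and 1 lower at 18 h, and 25 were higher at 6 h. The shares of all genes were 8.56% higher and 9.78% lower at 18 h and 6.12% higher at 6 h. In the contrast 10 had faded from above, against 0.822% of all genes. Only genes raised at 6 h can fade from above, and 149 of all 1110 such genes did, beside these 10 of 25. ZBTB16 had grown, and the list's median contrast was -0.51 against 0.000788 for all genes. Besides SLC19A2, the faded genes were CRISPLD2, a secreted LCCL domain protein (-1.43 ± 0.38), RGS2, which shortens signalling by Gq (-1.26 ± 0.15), the transcription factor TFCP2L1 (-0.93 ± 0.27), the cell cycle regulator RGCC (-0.85 ± 0.25) and the NF-kappaB inhibitor NFKBIA (-0.84 ± 0.20). The others were TNFAIP3, an inhibitor of NF-kappaB signalling (-0.70 ± 0.21), the kinase SGK1 (-0.69 ± 0.16), ERRFI1, which inhibits the EGF receptor (-0.65 ± 0.17), and glutamine synthetase GLUL (-0.44 ± 0.13). Of the 5 GLUL probe sets, 4 ran in this direction, with contrasts from -0.48 to 0.19 over the 5. TNFAIP3 and TFCP2L1 were no longer called at 18 h, with effects of 0.20 and 0.50. Several of the best known members were not called in the contrast, among them TSC22D3 (-0.36 ± 0.15, with 4.83 at 18 h and 5.20 at 6 h), FKBP5 (-0.33 ± 0.15), DUSP1 (-0.27 ± 0.13) and CDKN1C (-0.02 ± 0.36). The receptor gene NR3C1 had -0.94 at 18 h and -1.05 at 6 h. Its contrast of 0.11 ± 0.12 was not called (adjusted p = 0.842), but it was called in cells that also had formoterol, as given below.

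Metallothioneins, which bind zinc and copper, faded from above in 3 members of a list of 15 genes, against 0.822% of all genes. In this list 7 genes were raised at 6 h, and of all 1110 genes raised at 6 h 149 faded from above. MT1X at 18 h read 8.89, 9.03, 8.61 and 8.73 in budesonide cells and 7.48, 7.54, 6.77 and 7.30 in untreated cells. MT1X at 6 h read 11.17, 11.13, 10.72 and 10.84 in budesonide cells and 7.87, 7.86, 7.51 and 7.52 in untreated cells. The budesonide arrays lay above the untreated ones at both times, by less at 18 h, and the contrast was -1.73 ± 0.21. MT1E had -0.90 ± 0.16 and MT2A -0.40 ± 0.09, and these genes are near copies. In the same list the zinc importers SLC39A10 (-0.44 ± 0.12) and SLC39A14 (-0.45 ± 0.10) grew downwards (1.56% of all genes). Of 27 transcription factors of the glucocorticoid cascade, 21 were not called, 5 were lower in the contrast and 1 was higher, against 2.53% and 1.71% of all genes. The 4 that faded were KLF4 (-1.55 ± 0.34), SOX4 (-0.98 ± 0.21), CEBPB (-0.76 ± 0.23) and TFCP2L1, and the other two called were ZBTB16 above and PER2 below.

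Genes that faded from below had a median effect of -0.05 at 18 h, against -0.61 at 6 h. TNFRSF11B, the decoy receptor osteoprotegerin, had the most negative 6 h effect of those named. TNFRSF11B at 18 h read 6.33, 6.51, 6.44 and 6.76 in budesonide cells and 8.59, 8.96, 8.94 and 8.99 in untreated cells. TNFRSF11B at 6 h read 5.07, 4.99, 4.93 and 5.58 in budesonide cells and 8.52, 8.83, 8.82 and 8.95 in untreated cells. Budesonide arrays lay below untreated arrays at both times, and by less at 18 h, with a contrast of 1.28 ± 0.26 (adjusted p = 0.000671). ENC1, an actin-binding kelch protein, at 18 h read 8.33, 8.26, 8.19 and 8.11 in budesonide cells and 9.15, 9.18, 9.24 and 9.19 in untreated cells. ENC1 at 6 h read 6.72, 6.61, 6.57 and 6.74 in budesonide cells and 9.18, 9.16, 9.18 and 9.09 in untreated cells. Its groups did not overlap at either time, and the contrast was 1.53 ± 0.13.

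The vitamin D receptor VDR had -0.82 at 18 h and -2.17 at 6 h, and VGLL2, a cofactor of TEAD transcription factors, had -0.85 at 18 h and -2.46 at 6 h. ADAMTS3, a procollagen-processing protease, had -0.72 at 18 h and -1.90 at 6 h. For 3 genes the 18 h effect was not called. They were the transferrin receptor TFRC (0.25 at 18 h and -0.98 at 6 h), the galactosyltransferase B3GALT2 (0.46 at 18 h and -0.76 at 6 h) and the sterol-binding protein STARD5 (0.28 at 18 h and -0.93 at 6 h). TFRC, with a contrast of 1.23 ± 0.25, was not called when all of its probe sets were averaged (0.77, adjusted p = 0.102).

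Of 27 cytokines and chemokines, 2 were called, against 4.24% of all genes, and both were higher. CCL2, which attracts monocytes, was lowered by less at 18 h (-2.22) than at 6 h (-3.29), with a contrast of 1.06 ± 0.22. CXCL1, which attracts neutrophils, at 18 h read 5.76, 6.10, 5.36 and 5.95 in budesonide cells and 4.99, 4.93, 4.23 and 4.76 in untreated cells. CXCL1 at 6 h read 4.33, 4.55, 4.09 and 4.31 in budesonide cells and 5.05, 5.01, 4.50 and 4.50 in untreated cells. Budesonide arrays lay above untreated arrays at 18 h, and the contrast was 1.51 ± 0.23, while the 6 h effect of -0.45 was not called. None of 26 interferon-stimulated genes and none of 19 heat shock and chaperone genes was called, which is near the 4.24% of all genes for lists of this size. Of 30 cell division and replication genes, 4 were higher in the contrast, against 1.71% of all genes. At 18 h 1 of the 30 was lower and 4 were higher, against 9.78% and 8.56% of all genes, and at 6 h 10 were lower and 2 higher, against 8.12% and 6.12%. The 4 higher in the contrast were the mitotic kinase AURKA (0.30 ± 0.09), the kinesins KIF20A (0.33 ± 0.10) and CENPE (0.49 ± 0.11), and cyclin CCNB2 (0.34 ± 0.08), all under 2-fold.

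Among the 32 reversed genes, 22 changed to lower and 10 to higher. PLAT, the tissue plasminogen activator, had the largest contrast of them. PLAT at 18 h read 7.32, 7.33, 7.19 and 7.44 in budesonide cells and 8.47, 8.57, 8.52 and 8.48 in untreated cells. PLAT at 6 h read 10.39, 10.38, 10.27 and 10.20 in budesonide cells and 8.80, 8.62, 8.47 and 8.42 in untreated cells. All 4 budesonide arrays lay below untreated cells at 18 h and above them at 6 h, while the untreated arrays of both times overlapped. The effect was -1.19 at 18 h and 1.73 at 6 h, and the contrast was -2.92 ± 0.16 (adjusted p = 5.5e-21). Of 12 plasminogen and coagulation genes, 5 were lower in the contrast and 1 higher, against 2.53% and 1.71% of all genes, with a median of -0.54. The urokinase PLAU (-0.57 ± 0.15) and the protease inhibitor SERPINE2 (-1.36 ± 0.11) grew downwards, as SERPINB7 did. Thrombomodulin THBD faded from above (-1.44 ± 0.20), and the inhibitor TFPI2 faded from below (0.60 ± 0.17).

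ACTC1, the cardiac alpha-actin, at 18 h read 3.65, 3.58, 3.11 and 3.65 in budesonide cells and 4.64, 4.93, 4.45 and 4.74 in untreated cells. ACTC1 at 6 h read 5.73, 5.56, 5.26 and 5.39 in budesonide cells and 4.78, 4.21, 4.36 and 4.16 in untreated cells. The budesonide arrays lay below the untreated ones at 18 h and above them at 6 h, with a contrast of -2.30 ± 0.22. PTX3, a pentraxin of innate defence, had -0.53 at 18 h and 0.82 at 6 h, with a contrast of -1.35 ± 0.22. Its start region, on the plus strand at chr3:157436600-157436899, is shown because PTX3 also reversed and holds the half-site AGAACA, in capitals at position -245.
PTX3: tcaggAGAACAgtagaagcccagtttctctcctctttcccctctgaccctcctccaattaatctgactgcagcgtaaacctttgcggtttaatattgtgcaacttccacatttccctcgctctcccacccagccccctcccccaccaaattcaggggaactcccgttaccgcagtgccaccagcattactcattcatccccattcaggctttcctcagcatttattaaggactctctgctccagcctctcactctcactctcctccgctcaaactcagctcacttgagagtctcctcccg

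SOCS2, an inhibitor of cytokine signalling, had -1.15 at 18 h and 0.68 at 6 h. PFKP, a phosphofructokinase of glycolysis, had a contrast of -1.25 ± 0.13. AFAP1L1, an actin filament-associated protein, had -0.69 at 18 h and 0.68 at 6 h, and NT5DC3 had -0.63 at 18 h and 0.62 at 6 h. In a list of 30 genes of glucose use and fasting metabolism, 6 were lower and 1 higher in the contrast, against 2.53% and 1.71% of all genes. The 3 that grew downwards were the hexokinase HK1 (-0.68 ± 0.13), lactate dehydrogenase LDHA (-0.43 ± 0.11) and PDK1, a pyruvate dehydrogenase kinase (-0.91 ± 0.28). The 3 that faded from above were GLUL, the lipid droplet protein PLIN2 (-0.73 ± 0.10) and the lipin LPIN1 (-0.61 ± 0.12), and the insulin receptor substrate IRS1 faded from below (0.41 ± 0.11).

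FRY, a large microtubule-associated protein, led the genes that reversed to higher. FRY at 18 h read 7.78, 7.51, 7.73 and 7.56 in budesonide cells and 6.24, 6.24, 5.77 and 6.27 in untreated cells. FRY at 6 h read 5.76, 5.46, 5.37 and 5.86 in budesonide cells and 6.07, 6.20, 5.91 and 6.05 in untreated cells. Budesonide arrays lay above untreated ones at 18 h and below them at 6 h, and the contrast was 1.95 ± 0.21 (adjusted p = 2.47e-10). The others named had smaller contrasts, between 0.65 for the chromatin remodeller HELLS and 1.06 for KRTAP1-5, a keratin-associated protein, beside BMAL1 below. The 18 h effects of HELLS (0.23, limma adjusted p = 0.049) and KRTAP1-5 (0.47, adjusted p = 0.0463) were only just called. ABAT, which breaks down the transmitter GABA, had 1.03 ± 0.20. CLIP4, of a family of microtubule-binding proteins, had 0.97 ± 0.12. The ubiquitin ligase MID1 had 0.69 ± 0.14 and the F-box protein FBXL17 0.68 ± 0.10.

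**Figure D2:**
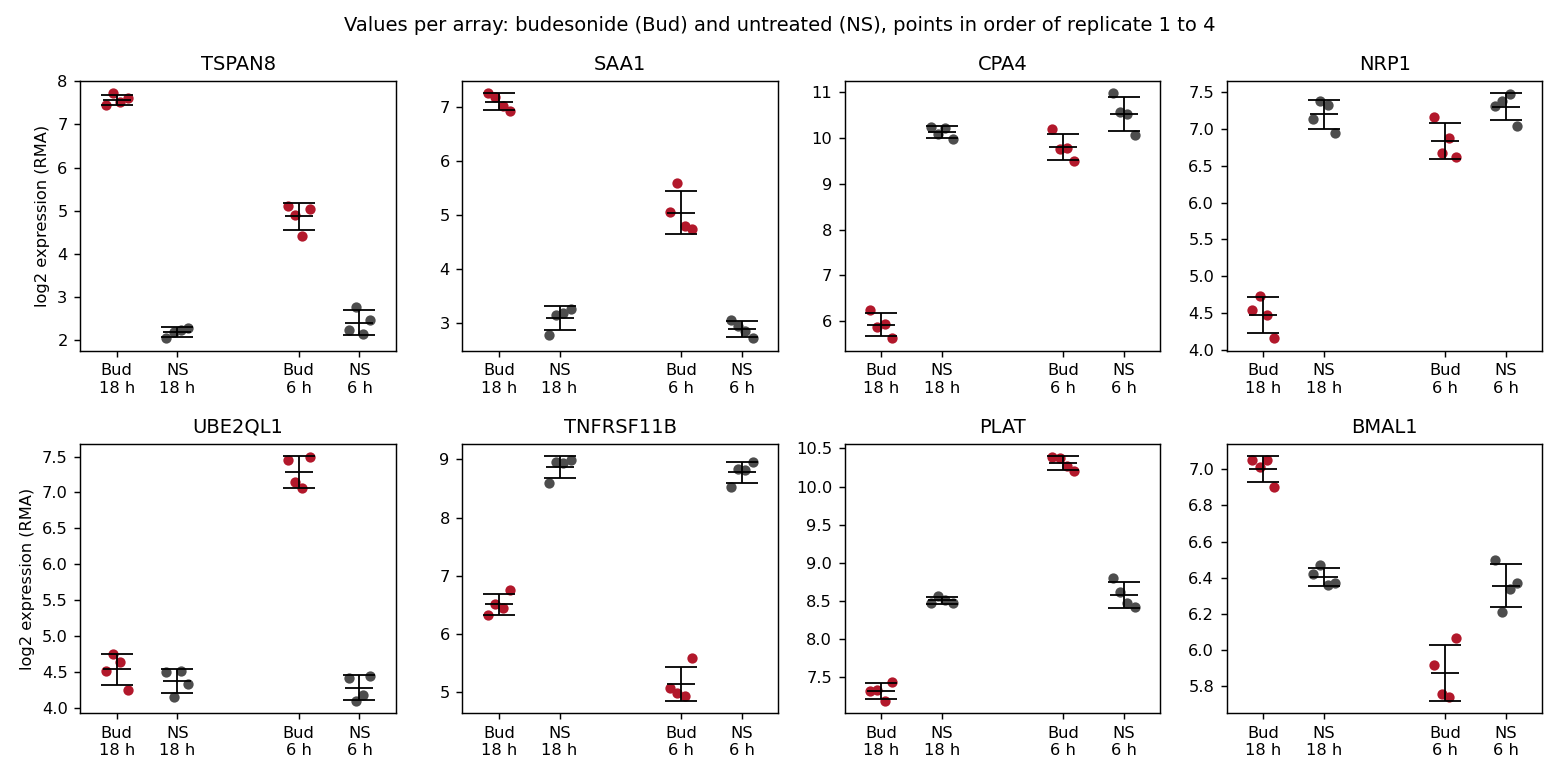
Log2 expression of 8 genes in each array of Bud_18h, NS_18h, Bud_6h and NS_6h; points are arrays in the order of replicate 1 to 4, and bars give the mean and SD (n = 4). In PLAT the budesonide points lie between 7.19 and 7.44 at 18 h and between 10.20 and 10.39 at 6 h, with untreated points between.

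Clock genes, which form a daily feedback loop of transcription, were called in 4 of 17 measured members, and BMAL1 and PER2 changed in opposite directions. BMAL1, an activator of the loop, at 18 h read 7.05, 7.01, 7.05 and 6.90 in budesonide cells and 6.42, 6.47, 6.36 and 6.37 in untreated cells. BMAL1 at 6 h read 5.92, 5.76, 5.74 and 6.07 in budesonide cells and 6.50, 6.21, 6.34 and 6.37 in untreated cells. Its budesonide arrays lay above untreated arrays at 18 h and below them at 6 h, with a contrast of 1.08 ± 0.16 (adjusted p = 1.2e-06). PER2, a repressor of the loop, at 18 h read 4.67, 4.16, 4.61 and 4.47 in budesonide cells and 5.34, 5.29, 5.16 and 5.30 in untreated cells. PER2 at 6 h read 6.32, 6.17, 5.89 and 6.16 in budesonide cells and 5.62, 4.91, 5.19 and 5.22 in untreated cells. Here budesonide arrays lay below untreated arrays at 18 h and above them at 6 h, with a contrast of -1.70 ± 0.23 (adjusted p = 2.06e-07). Of the 5 PER2 probe sets, 3 ran in this direction and 1 of them was called, with contrasts from -1.70 to 0.06 over the 5. Of the 17 genes, 3 were lower and 1 higher in the contrast, against 2.53% and 1.71% of all genes, with a median of -0.55. The repressor NR1D2 grew downwards (-0.63 ± 0.18) and CIART, a repressor of BMAL1-driven transcription, faded from above (-0.75 ± 0.22). PER1 had 2.30 at 18 h and 2.97 at 6 h, and its contrast of -0.68 ± 0.40 was not called.

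The CIART start region, on the plus strand at chr1:150282304-150282603, was picked after its values were seen and is shown because it holds 3 clock E-boxes, CACGTG, in capitals at positions -129, -71 and -57.
CIART: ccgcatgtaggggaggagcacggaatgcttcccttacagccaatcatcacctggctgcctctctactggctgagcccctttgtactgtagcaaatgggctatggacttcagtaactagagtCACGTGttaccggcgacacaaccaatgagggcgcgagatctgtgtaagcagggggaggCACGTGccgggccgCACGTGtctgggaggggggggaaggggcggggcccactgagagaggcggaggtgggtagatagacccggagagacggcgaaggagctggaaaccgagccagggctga

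Motifs were searched on both strands in the 300 bases around the start of 14425 genes with a RefSeq sequence. The full response element occurred in 0.256% of them, in 1 of 231 genes that grew downwards (CPA3), 1 of 129 that faded from above and none of 140 that grew upwards. The half-site AGAACA, which can overlap the full element but not lie within it, occurred in 11.0% of all and in 7.86% of genes that grew upwards, 7.79% that grew downwards, 9.30% that faded from above and 10.8% that faded from below. The FOXO motif GTAAACA occurred in 5.71% (8 of 140) of genes that grew upwards, 2.60% that grew downwards, 0.775% (1 of 129) that faded from above and 0.980% (1 of 102) that faded from below, against 2.53% of all. The E-box CACGTG occurred in 7.14%, 9.96%, 11.6% and 13.7% of these classes in the same order, against 8.82% of all. These shares are descriptions without a test, and a match is not a measured binding site.

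**Figure D3:**
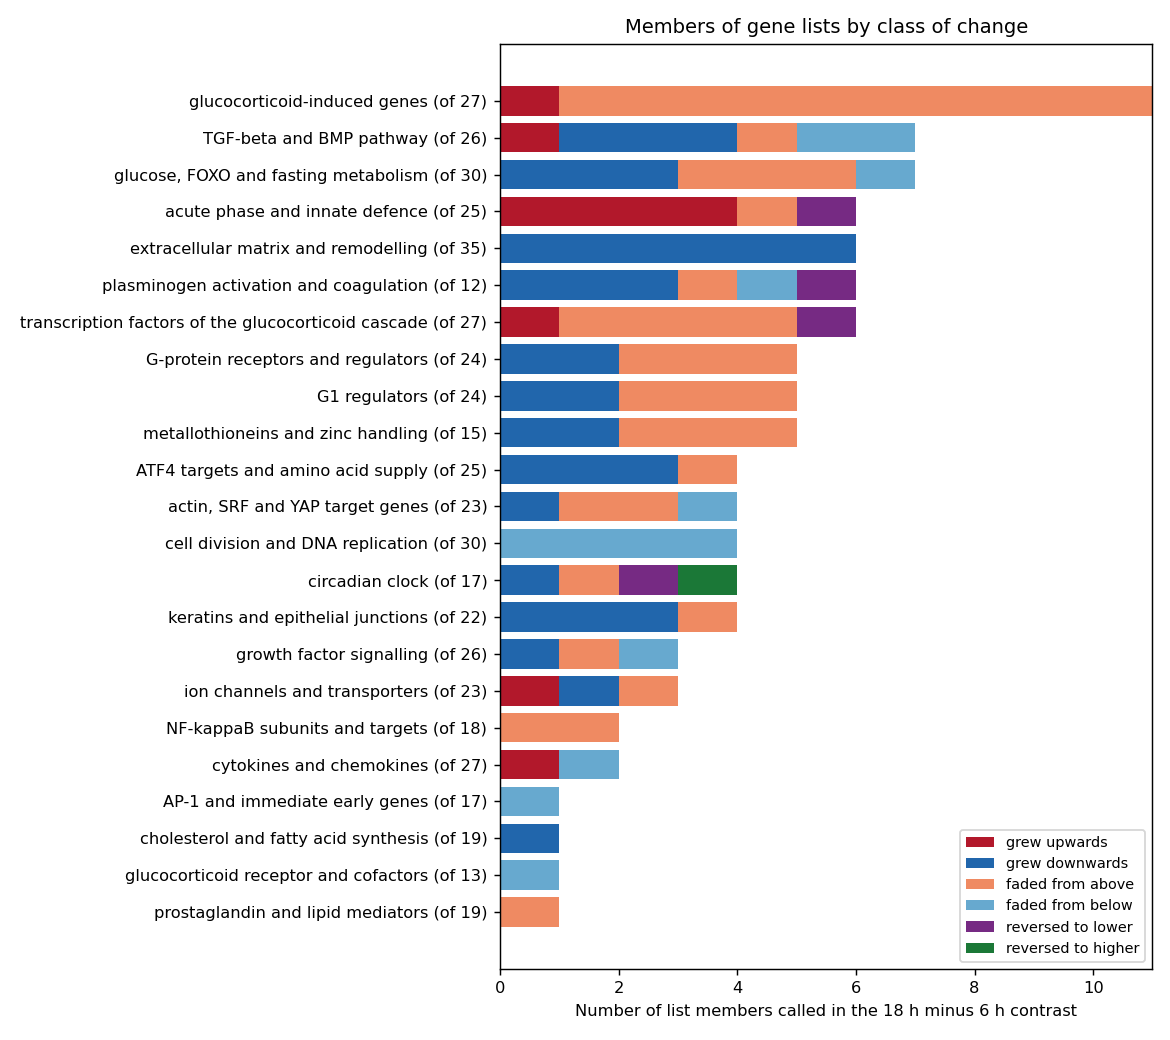
Number of genes called in the contrast (x axis) in each gene list with at least 1 called gene (y axis, number measured in brackets), with colours for the classes. The glucocorticoid-induced list has 10 faded genes and 1 that grew, and the extracellular matrix list has 6 that grew downwards.

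The arrays at 1 and 2 h were not used by the contrast and showed the earlier course of each class. Of 149 genes that faded from above, 33 were higher under budesonide at 1 h and 79 at 2 h, against 0.667% and 1.69% of all genes. Of 882 genes raised at 6 h and not called in the contrast, 54 (6.12%) were higher at 1 h and 137 (15.5%) at 2 h. For the genes that faded these shares were 22.1% and 53.0%, beside a median 6 h effect of 0.78, against 0.43 for those not called in the contrast. Of 126 genes that faded from below, 7 were lower at 1 h and 36 at 2 h, against 0.331% and 2.26% of all genes. Of 1238 genes lowered at 6 h and not called in the contrast, 37 were lower at 1 h and 198 at 2 h.

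Of 170 genes that grew upwards, 0 were called at 1 h, and 6 (3.53%) were higher and 3 (1.76%) lower at 2 h, against 1.69% and 2.26% of all genes. Of 283 that grew downwards, 5 (1.77%) were higher and 0 lower at 1 h, against 0.667% and 0.331% of all genes. At 2 h, 13 (4.59%) of these were higher and 5 (1.77%) lower. Among the named genes, SLC19A2 had effects of 2.85, 3.47, 2.68 and 0.80 at 1, 2, 6 and 18 h. PLAT had 1.06, 1.62, 1.73 and -1.19 at these times, and SOCS2 had 0.84, 1.54, 0.68 and -1.15. NLGN4X, by contrast, had 0.00, -0.07, 2.13 and 0.28, with neither early effect called. CPA4 had -0.07, -0.08, -0.72 and -4.22. Of the 4 times, the effect was highest at 6 h in NLGN4X and PLAT and at 2 h in SLC19A2 and SOCS2.

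**Figure D4:**
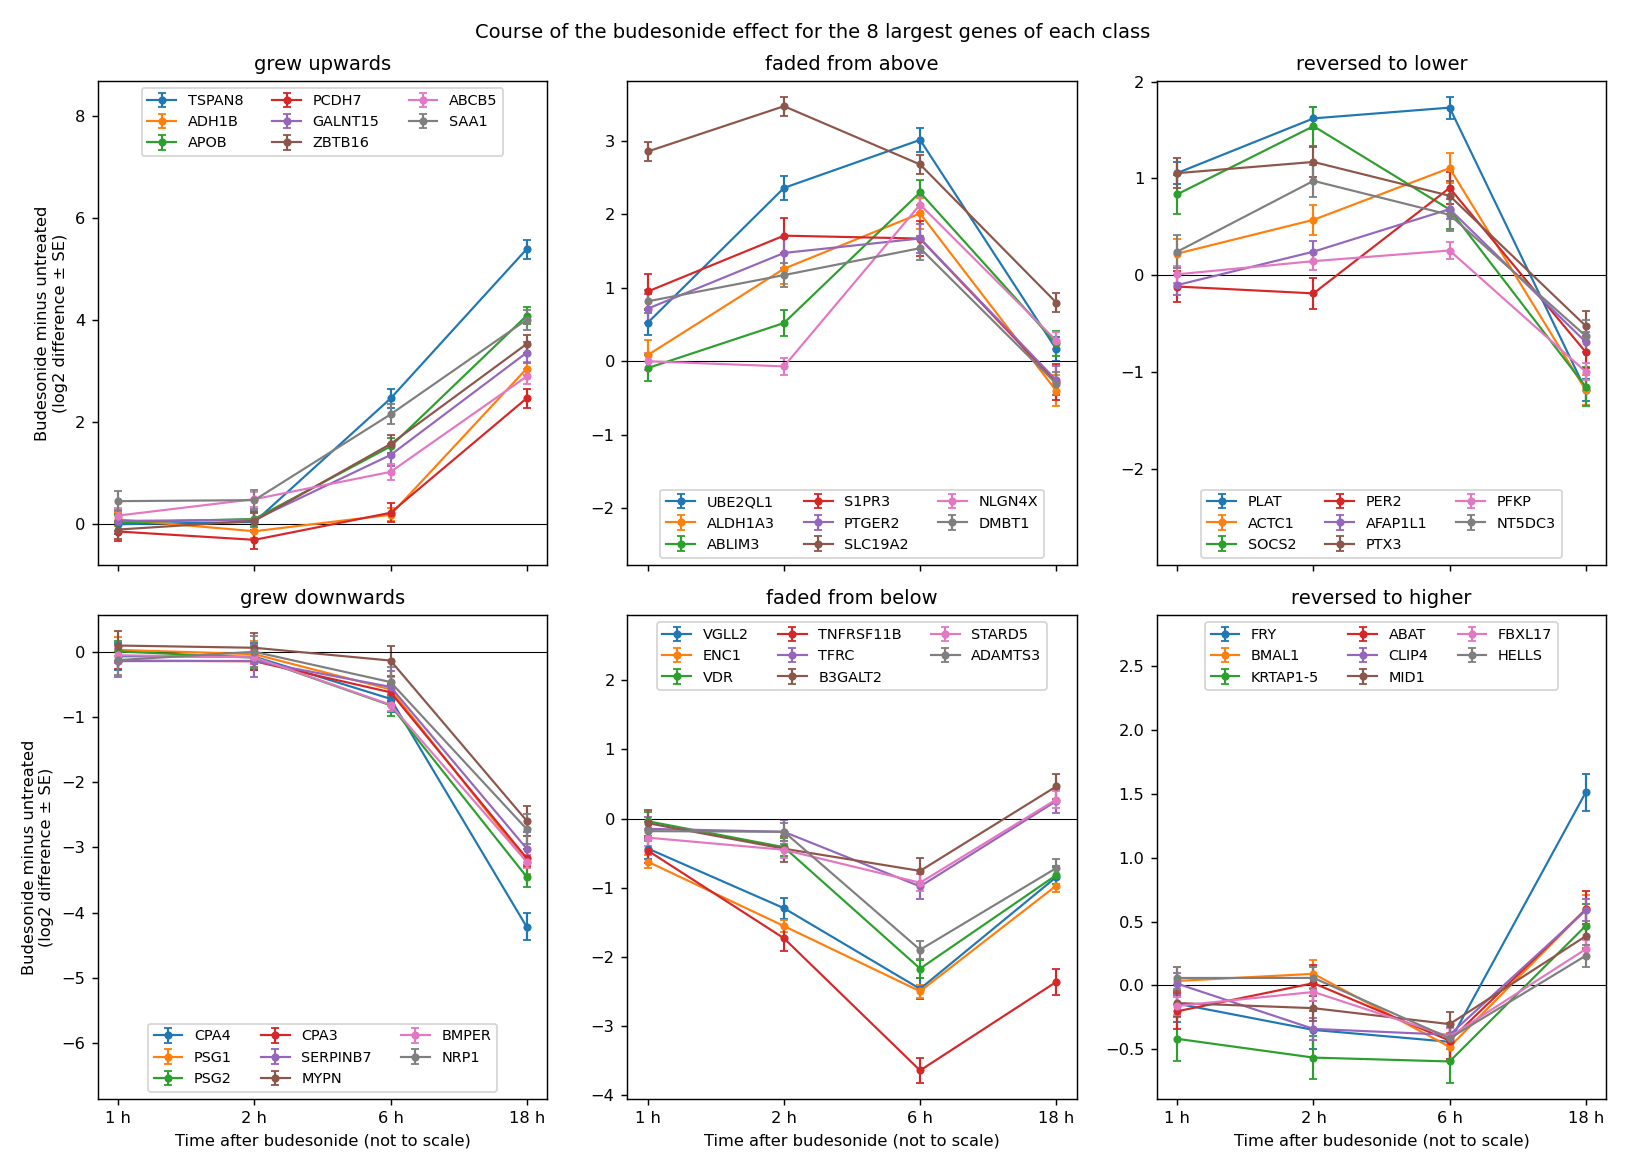
Budesonide minus untreated log2 difference (y axis, bars give the SE, n = 4 per group) at 1, 2, 6 and 18 h (x axis, not to scale) for the 8 largest genes of each class. The 16 genes that grew lie between -0.30 (PCDH7) and 0.49 (ABCB5) at 1 and 2 h, while SLC19A2 stands at 2.85 at 1 h.

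The same question could be asked in cells that also had formoterol, by comparing cells given both drugs with cells given formoterol alone at 18 h and at 6 h. These arrays share none with the comparison above. Both contrasts came from one fit with one estimate of the spread per gene, and their arrays carry the same replicate numbers. Calls in both are therefore not fully independent. In the cells with formoterol 1230 genes, or 6.78%, were called. Of the 769 genes, 746 (97.0%) had a contrast of the same sign over formoterol, and 529 (68.8%) had the same sign and were called. Over all genes these shares were 65.5% and 6.56%, and none of the 769 was called in the opposite direction. The median contrast of genes that grew upwards was 0.50 over formoterol and 0.64 without it, and that of genes that grew downwards was -0.56 and -0.68. For genes that faded from above it was -0.65 and -0.69, and for genes that faded from below 0.57 and 0.55.

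The contrast over formoterol was 3.28 ± 0.26 for TSPAN8, -3.54 ± 0.29 for CPA4, -3.90 ± 0.16 for PLAT, -1.92 ± 0.24 for UBE2QL1, 1.51 ± 0.16 for BMAL1 and 2.07 ± 0.21 for FRY, all called. For NR3C1, not called without formoterol, it was 0.67 ± 0.12 and called (adjusted p = 5.69e-05), with -0.77 at 18 h and -1.43 at 6 h. The difference between its contrasts with and without formoterol was not called (adjusted p = 0.447). Of the 48 genes named by size, 47 had the same sign and were called over formoterol, and MID1 was not called (0.37 ± 0.14, adjusted p = 0.111). The class was not always shared. PLAT, FRY, PER2 and BMAL1 also had called effects of opposite signs over formoterol. There ACTC1 (0.26), ABAT (0.03) and KRTAP1-5 (-0.35) were not called at 6 h, nor PTX3 (-0.28) and HELLS (0.12) at 18 h. DMBT1, which faded without formoterol, had 0.07 at 6 h (not called) and -1.01 at 18 h (called) over it. Of the other 77 called members of the gene lists, 59 had the same sign and were called, and 18 were not. Among those 18 the contrast over formoterol was -0.01 ± 0.16 for SGK1, -0.25 ± 0.38 for CRISPLD2, 0.24 ± 0.23 for CXCL1, 0.10 ± 0.24 for C3, 0.53 ± 0.24 for SCNN1A and -0.53 ± 0.28 for IGFBP5, all smaller in size than without formoterol. The difference between the contrast over formoterol and the contrast without it was called for 9 of all genes (0.0496%) and 4 of the 769, none of them among the 6 genes just given. ZFAND5, a zinc finger protein, had -1.46 ± 0.09 over formoterol and -0.78 ± 0.09 without it, with a difference of -0.68 ± 0.13 (adjusted p = 0.015). ASNS, the asparagine synthetase, had -0.01 ± 0.11 over formoterol and -0.77 ± 0.11 without, with a difference of 0.76 ± 0.16. DUSP4, a phosphatase of MAP kinases, had -0.09 ± 0.12 over formoterol and 0.72 ± 0.12 without, with a difference of -0.82 ± 0.17. SLC22A4, a carnitine and ergothioneine transporter, had -1.71 ± 0.12 over formoterol and -0.93 ± 0.12 without, with a difference of -0.78 ± 0.17. The last 3 had an adjusted p = 0.029 each, and ZFAND5 and SLC22A4 are named only for this test, after their values were seen.

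**Figure D5:**
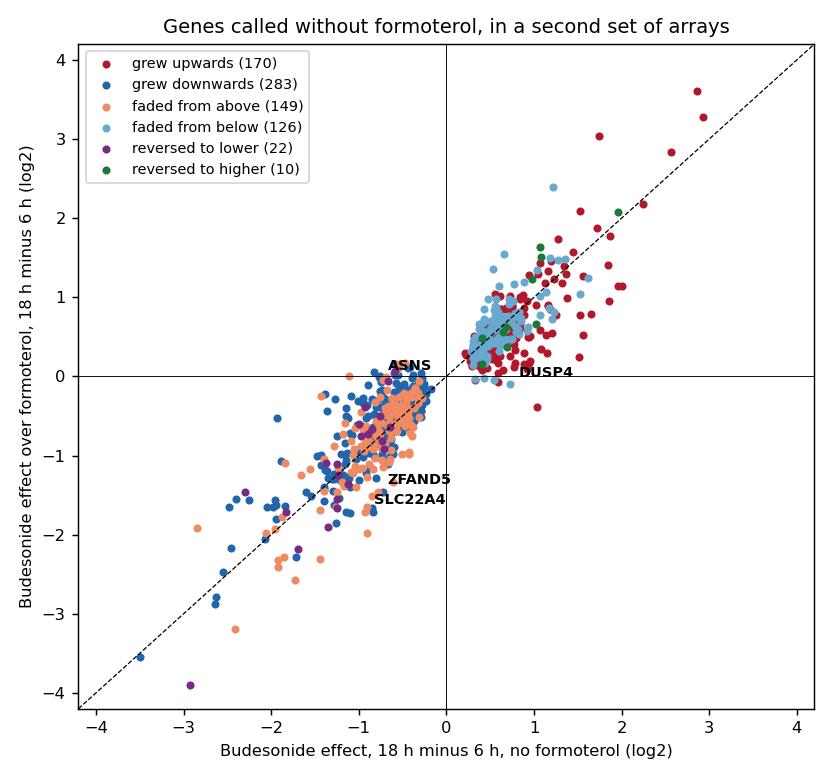
Contrast of the budesonide effect, 18 h minus 6 h, without formoterol (x axis) and over formoterol in other arrays (y axis), log2, for the called genes of each class. Of the 769 called genes 746 share the sign, the dashed line marks equal contrasts, and the 4 named genes are those whose contrasts differed.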

How the data were processed

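Expression was measured on 64 Affymetrix arrays of BEAS-2B cells, 4 in each of 16 groups. The authors deposited log2 expression values per probe set made with RMA, per the submitters' processing notes. RMA corrects background, normalizes and summarises probes. The RMA version is not stated there, nor whether the arrays were normalized as one set, which would hide a change common to most genes. Probe sets named for a single gene symbol were used (44994 of 49395). For each of 18132 genes the one with the highest mean of the 64 values stood for the gene.

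One linear model with a mean per group was fitted to all 64 arrays (48 residual degrees of freedom) with limma 3.58.1 in R 4.3.3, with values read by data.table (version 1.17.8). Empirical Bayes moderation had an intensity trend, and p-values were two-sided and Benjamini-Hochberg adjusted over all genes. The contrast and its parts came from this fit, without a term for the replicate number. Other steps used Python 3.11.15 with pandas 2.3.3 and matplotlib 3.10.9. The fit was tested on simulated data.

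Genes named by size were the 8 largest contrasts of each class among called genes with a size of at least 1 and a highest group mean of 4.90 (the median of all values) or more. For reversed genes neither the minimum size nor the minimum group mean applied. Members of gene lists could be named too. Members, lists and motifs were chosen with earlier results of these data known, so list counts are descriptions. Results were recomputed with the replicate number as a block (over all arrays or within each time), with arrays centred on their median, with quantile normalization done again, without dim genes, with no trend, the mean of all probe sets, only the 16 arrays, and arrays left out. Start regions came from RefSeq (GRCh38.p14).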

Additional observations from a re-analysis of the deposited data

Results flagged for a closer look

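The budesonide effect differed between 18 h and 6 h in 769 genes, by a test of the difference itself, as described above. Each of the 48 genes named by size was also looked at in its 4 groups for 1 array far from the other 3, by Dixon's test, which gave 14 such arrays in 192 group tests, in 13 genes. Chance alone gives some such arrays, about 1 group in 20. None of these arrays decided a call in the contrast, since all 48 contrasts were called without each array in turn. The calls at each time, on which the classes rest, are not covered by this.

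At 18 h under budesonide, replicate 4 was low for S1PR3 (4.51, others 5.45 to 5.48) and PTGER2 (3.72, others 4.29 to 4.37), and replicate 3 for ACTC1 (3.11, others 3.58 to 3.65). In untreated cells at 18 h, replicate 3 was low for ADAMTS3 (5.30, others 5.96 to 6.08) and FRY (5.77, others 6.24 to 6.27). There replicate 1 was low for TNFRSF11B (8.59, others 8.94 to 8.99) and replicate 4 high for PTX3 (8.23, others at 8.19).

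At 6 h under budesonide, replicate 1 was high for SLC19A2 (9.10, others 8.83 to 8.87) and replicate 4 low for TFRC (7.22, others 8.10 to 8.27). TFRC was also low in replicate 4 of untreated cells at 6 h (8.20, others 9.12 to 9.18), so that both groups had their lowest value in arrays of the same number. In untreated cells at 6 h, replicate 3 was low for PSG1 (6.10, others 6.56 to 6.65), PFKP (10.16, others 10.36 to 10.37) and CLIP4 (8.92, others 9.03 to 9.04) and high for NT5DC3 (6.75, others 6.56 to 6.58).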

How the results depend on the processing

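Without each of the 16 arrays in turn, 654 to 778 genes were called (232 to 339 higher, 350 to 506 lower, 158 to 179 at least 2-fold), of which 381 to 452 grew, 230 to 282 faded and 27 to 35 reversed. Without all replicate 1 arrays 443 were called (159 higher, 284 lower), with 263 that grew, 158 that faded and 15 that reversed. The mean of all probe sets left 99 genes at least 2-fold, against 168. The counts stayed within 1.5 times with centred arrays (729), repeated quantile normalization (787), dim genes left out (855), no trend (718), and only the 16 arrays (693). Of 1199 values of the 48 named genes under all alternatives, 1198 kept direction and call, the exception being TFRC (0.77 with the mean of all probe sets). KRTAP1-5 was too dim to be tested when dim genes were left out. Signal over background limits what can be said of TSPAN8, ADH1B, APOB, GALNT15, ZBTB16, SAA1, KRTAP1-5, C3 and IGFBP5, each with a group mean under 3.02.

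Same-numbered arrays of the 4 groups had deviations that correlated at 0.090 to 0.476, with 22 of 24 over 0.1, and each of the 24 correlated more than with other numbers on average. The labels do not say what a number shares, so the pairing of arrays was not taken as given. With a replicate block 1322 genes were called (601 higher, 721 lower), with 747 that grew, 466 that faded and 77 that reversed. With a replicate block within each time 1881 were called (908 higher, 973 lower), with 1071, 652 and 122 in these classes, and over formoterol 2607 were called, against 1230. All 769 genes were called in both fits, in the same direction.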

Other observations

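Some gene families with late changes lay outside the lists and were picked after their values were seen, so their counts are descriptions. Of 5 measured genes of inflammatory caspases and their relatives (CASP1, CASP4, CASP5, CARD16 and CARD18), 3 grew upwards, against 0.938% of all genes. CASP1, the protease that matures interleukin-1 beta, averaged 7.47 in budesonide cells and 5.44 in untreated cells at 18 h, and 6.01 in budesonide cells and 5.63 in untreated cells at 6 h, with a contrast of 1.65 ± 0.24 (limma adjusted p = 1.41e-06). CARD16, which resembles the CASP1 recruitment domain, had a contrast of 1.37 ± 0.26 and CASP4 had 0.58 ± 0.17. Over formoterol the CASP1 contrast was 0.78 (adjusted p = 0.0347) and that of CARD16 was 1.29, both called, while that of CASP4 was 0.47 and was not called (adjusted p = 0.0750). CASP1 and CARD16 share sequence, and their probe sets may share transcripts.

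Of 9 measured pregnancy-specific glycoprotein genes, 7 were lower at 18 h and 2 at 6 h, and 4 were lower in the contrast, against 9.78%, 8.12% and 2.53% of all genes. Besides PSG1 and PSG2 these were PSG9 (-1.95 ± 0.33) and PSG3 (-0.71 ± 0.21). Of 5 lysyl oxidase genes 2 grew downwards, against 1.56% of all genes, LOXL1 (-1.54 ± 0.25) besides LOXL2, while LOX, LOXL3 and LOXL4 were not called. Of 5 carboxypeptidase A genes CPA3 and CPA4 alone were called. The carnitine transporter gene SLC22A5 faded from above like SLC22A4. Its effect was 0.02 at 18 h and 1.05 at 6 h, and its contrast was -1.03 ± 0.20.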
